A study of Homo sapiens with 10 samples.

Results

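The 9 genes described here encode chains of non-muscle myosin: the myosin II heavy chains MYH9 and MYH10, the essential light chains MYL6 and MYL6B, the regulatory light chains MYL9, MYL12A and MYL12B, and the single-headed class I motors MYO1C and MYO1E. They were found by their symbols in a table of 26134 genes, in which each had 1 entry. All 9 passed the filter on low values that left 10894 genes for testing. The cells were MDA-MB-231, an established line of triple-negative human breast cancer with a mesenchymal shape, and the labels name no genetic change or drug. Single cells were caught by micro-hooks on a chip, left for 6 h to extend protrusions, and fixed for 15 min on ice in 4% paraformaldehyde. Laser capture microdissection then gave 5 libraries of protrusions and 5 of the corresponding cell bodies, numbered 1 to 5, from polyadenylated RNA amplified with the SMART-Seq v4 kit. The labels give neither the number of cells per library nor separate cultures, so the spread behind each p-value is that of these 10 libraries and may be technical.

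Non-muscle myosin II is a hexamer of paired heavy chains, each carrying an essential and a regulatory light chain. Its heads pull on actin filaments and its tails assemble into bipolar filaments, and phosphorylation of the regulatory light chain by kinases such as MLCK and ROCK switches the motor on. In migrating cells it drives retraction of the rear, contraction of stress fibres and maturation of adhesions behind the leading edge. Class I myosins do not form filaments and link actin to membranes, with calmodulin as their usual light chain. The comparison of protrusions with cell bodies asks where the messages of these chains lie within the cell.

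The regulatory light chains are shown by sequence because MYL12A and MYL12B are so alike that some short reads may not tell them apart. The stretch below is coding sequence of 42 bases from the GENCODE 29 annotation, and the 6 capitals are the threonine and serine codons that light chain kinases phosphorylate.
MYL12A: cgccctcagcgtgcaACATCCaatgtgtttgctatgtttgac
MYL12B: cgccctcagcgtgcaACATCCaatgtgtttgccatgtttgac
MYL9: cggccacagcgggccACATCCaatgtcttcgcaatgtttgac
MYL12B differed from MYL12A at 1 of these bases and MYL9 at 7. Over the whole coding sequence MYL12A and MYL12B were 95.7% identical (491 of 513 bases), against 79.3% for MYL12A and MYL9 and 80.8% for MYL12B and MYL9. The longest run that MYL12A and MYL12B share is 77 bases, shown because a read inside it could come from either gene.
MYL12A and MYL12B shared run: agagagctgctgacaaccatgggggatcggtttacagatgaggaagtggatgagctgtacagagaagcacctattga
Of all 50-base words of their transcripts, 5.77% of those of MYL12A and 5.86% of those of MYL12B occurred in another gene, mostly in each other. For MYL9 the share was 0.0%. The essential light chains MYL6 and MYL6B were 80.6% identical (365 of 453 bases), with a longest shared run of 48 bases.
MYL6 and MYL6B shared run: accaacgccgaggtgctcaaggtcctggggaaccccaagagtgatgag
MYL12A and MYL12B are neighbours on chromosome 18, and MYL6 and MYL6B overlap on chromosome 12. In the annotation 13.9% of the exon bases of MYL6 and 12.3% of those of MYL6B overlapped another gene, mostly genes on the opposite strand and to a small part each other, so these values are uncertain in the overlaps. The heavy chains were 73.6% identical (MYH9 and MYH10) and 60.1% identical (MYO1C and MYO1E), and at most 0.593% of their 50-base words occurred elsewhere.

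Values are in scaled TPM, the unit inferred for the deposited numbers: TPM, an abundance corrected for transcript length and library size, times 1 factor per library. The values of a library summed to 737343 to 1103254 in protrusions and to 967421 to 1390253 in cell bodies. The number of reads behind them is unknown. Protrusion library 2 stood apart from the other protrusions, with 10471 genes at 1 or more against 9124 to 9378. Of the markers of the line, all 5 expected to be present were at 1 or more (VIM, CD44, AXL, KRT18, MKI67) and PGR was near 0, at most 0.010 in any library. CDH1, also listed as absent, was at 0 to 0.107 in protrusions but at 0.745 to 1.38 in cell bodies, and its part in the results was not tested. Of the skin, blood and muscle markers measured, KRT10 alone had a mean of 1 or more; the skin markers summed to 69.6 to 85.7 in protrusions and 94.3 to 111.9 in cell bodies, and their part in the results was not tested. A change, below, is the mean log2(value + 1) of protrusions less that of cell bodies, with its standard error (SE) and adjusted p from limma over all 10894 genes.

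Among the 9 myosin genes, MYO1C passed the threshold of 0.05, lower in protrusions, and no gene was higher there. The background was large, as 25.8% of all genes passed (4.28% higher in protrusions and 21.5% higher in cell bodies). With the replicate number as a block, MYL12B, MYL12A and MYL6 passed as lower too. In that fit 38.4% of all genes passed and 25.4% were lower in protrusions. The median change of the 9 genes was -0.13, against -0.03 over all genes tested. The protrusion and cell body ranges overlapped for each of the 9, while 21.8% of all genes had groups that did not overlap. MYO1C and MYL12B were lower in the protrusion of all 5 pairs, as were 26.4% of all genes. The values are relative within a library, times a factor that was larger in the cell body of all 5 pairs. What the factor stands for is not given, so neither the RNA per compartment nor the number of captured cells can be read from these values. With libraries rescaled to the same sum, which removes the factor, the median change over all genes was 0.24.

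The messages of the myosin II heavy chains did not pass in either direction as deposited, with or without the replicate block. Their calls under other scalings are given below. Among the 10894 genes MYH9 ranked near the middle (median rank 4509 in protrusions and 5932 in cell bodies) and MYH10 lower (7804 and 9859). MYH9, the heavy chain of non-muscle myosin IIA, stood at 4.45, 8.66, 4.04, 6.42 and 9.61 scaled TPM in protrusion libraries 1 to 5 and at 4.03, 5.58, 4.82, 4.74 and 5.84 in cell body libraries 1 to 5. Protrusion libraries 2, 4 and 5 were above every cell body, while the other protrusions lay within the cell body range. The protrusion exceeded the cell body of the same number in 4 of 5 pairs. The mean was 6.64 ± 2.48 (SD, n = 5) in protrusions against 5.00 ± 0.720 in cell bodies, and the log2 change was 0.29 ± 0.24 (SE; 95% interval -0.23 to 0.81; adjusted p = 0.428).

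MYH10, the heavy chain of non-muscle myosin IIB, stood at 1.42, 2.91, 1.65, 1.64 and 1.57 in protrusions and at 1.23, 1.97, 1.36, 1.33 and 1.78 in cell bodies. Protrusion library 2 was the highest of all 10 and the rest lay within the cell body range. The log2 change was 0.15 ± 0.19 (SE; 95% interval -0.26 to 0.56; adjusted p = 0.625). MYH9 made up 77.4% ± 5.69 (SD, n = 5) of the summed heavy chain level in protrusions and 76.7% ± 1.72 in cell bodies. Under quantile normalization MYH9 passed as higher in protrusions, with a log2 change of 0.65 (adjusted p = 0.0344), as did MYH10 at 0.57 (adjusted p = 0.0141). In that setting 34.7% of all genes passed, 17.5% as higher in protrusions and 17.3% as higher in cell bodies, and MYL12A passed as lower (-0.38, adjusted p = 0.0238).

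**Figure D1:**
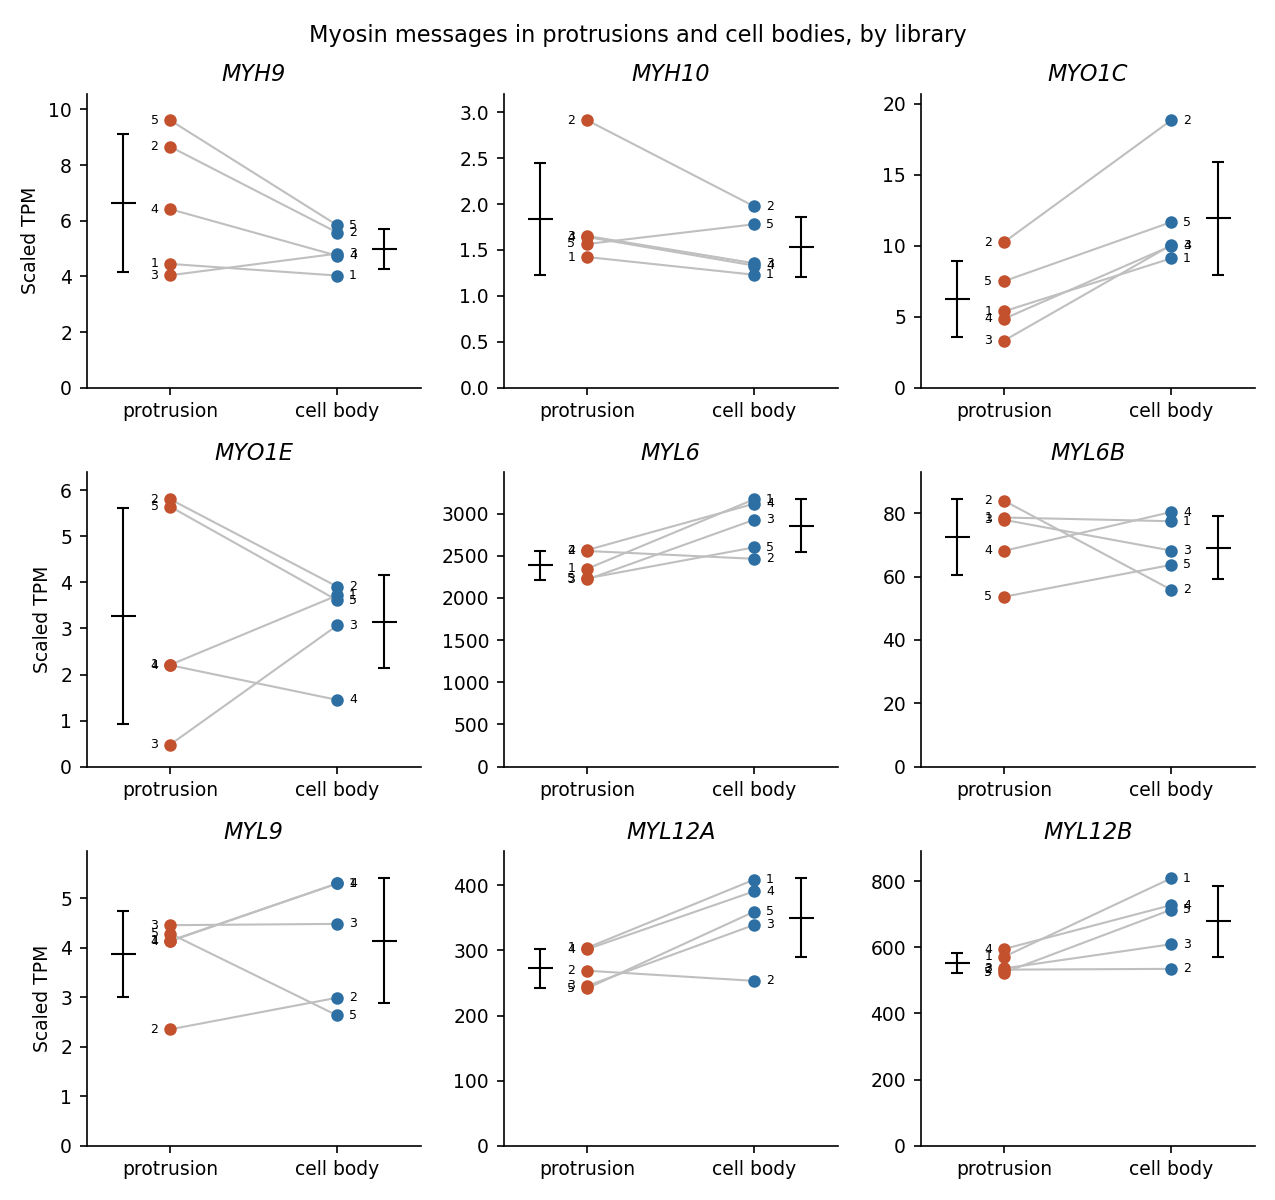
Scaled TPM (vertical axes from 0, each with its own scale) of the 9 myosin genes in protrusion and cell body libraries, with numbered points for the 5 libraries of each group, lines joining libraries of the same number, and the mean with its SD. MYO1C was at 3.32 to 10.3 in protrusions and at 9.11 to 18.9 in cell bodies, and the points of the 2 groups overlap in every panel.

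The essential light chains, which stiffen the lever arm of the motor, were far more abundant than the heavy chains per length. MYL6 was at 2345, 2556, 2218, 2567 and 2232 scaled TPM in protrusions and at 3169, 2463, 2926, 3116 and 2599 in cell bodies. Only cell body library 2 fell within the protrusion range, and 4 of 5 pairs were lower in the protrusion. The mean was 2384 ± 170 (SD, n = 5) against 2855 ± 313, a log2 change of -0.26 ± 0.13 (SE; 95% interval -0.53 to 0.02; adjusted p = 0.176). With the replicate number as a block the adjusted p was 0.0208, and with libraries rescaled to the same sum the change was 0.10, the opposite sign.

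MYL6B, the second essential light chain, was at 78.7, 84.0, 77.9, 68.2 and 53.7 in protrusions and at 77.5, 55.9, 68.2, 80.4 and 63.7 in cell bodies. Neither compartment was the higher as a group, and the log2 change was 0.06 ± 0.17 (SE; 95% interval -0.30 to 0.42; adjusted p = 0.830). MYL6B was 2.95% ± 0.456 (SD, n = 5) of the summed essential light chain level in protrusions and 2.36% ± 0.115 in cell bodies.

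The abundant regulatory light chains MYL12A and MYL12B, which are phosphorylated in non-muscle cells to activate myosin II, were lower on average in protrusions. They did not pass the test without the replicate block. MYL12A was at 304.1, 268.9, 245.6, 302.0 and 241.8 in protrusions and at 408.9, 253.3, 339.4, 391.0 and 359.7 in cell bodies. All cell bodies other than library 2 were above every protrusion. The log2 change was -0.35 ± 0.16 (SE; 95% interval -0.69 to -0.01; adjusted p = 0.126). The adjusted p was 0.0164 with the replicate block and 0.0196 without cell body library 2, and the change was 0.01 with libraries rescaled to the same sum.

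MYL12B was at 571.3, 532.2, 536.1, 594.6 and 523.4 in protrusions and at 808.6, 534.6, 609.1, 727.4 and 713.5 in cell bodies. Each protrusion was below the cell body of its number, and cell body library 2 again lay within the protrusion range. The log2 change was -0.29 ± 0.14 (SE; 95% interval -0.59 to 0.02; adjusted p = 0.166). With the block the adjusted p was 0.0204, without cell body library 2 it was 0.0499, and rescaling to the same sum gave a change of 0.07.

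MYL9, the regulatory light chain of smooth muscle that non-muscle cells also express, was at 4.14, 2.35, 4.45, 4.13 and 4.28 in protrusions and at 5.30, 2.99, 4.48, 5.30 and 2.63 in cell bodies. Protrusion library 2 was the lowest of all 10, and the other protrusions lay inside the cell body range. The log2 change was -0.06 ± 0.24 (SE; 95% interval -0.57 to 0.45; adjusted p = 0.885), and it took the opposite sign when libraries were rescaled to the same sum (0.23). MYL9 made up 0.469% ± 0.110 (SD, n = 5) of the summed regulatory light chain level in protrusions and 0.399% ± 0.0946 in cell bodies, MYL12B made up 66.7% ± 1.39 against 65.7% ± 1.44, and MYL12A the remainder.

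MYO1C, a class I motor that tethers membrane to actin and takes part in exocytosis, was the member that passed without the block. It was at 5.39, 10.3, 3.32, 4.86 and 7.51 scaled TPM in protrusions and at 9.11, 18.9, 10.1, 10.0 and 11.7 in cell bodies. Each protrusion was lower than the cell body of its number, and protrusion library 2 alone reached into the cell body range. The mean was 6.27 ± 2.69 (SD, n = 5) against 11.9 ± 3.97, a log2 change of -0.86 ± 0.28 (SE; 95% interval -1.46 to -0.27; adjusted p = 0.0317). With the replicate block the adjusted p was 0.00202. The adjusted p was 0.103 with libraries rescaled to the same sum (change -0.55), 0.125 after quantile normalization and 0.0539 after median-of-ratios scaling, each without the block, and 0.0569 with no filter on low values. With the block these scalings gave adjusted p of 0.0185, 0.0157 and 0.00270. The fits without the block called 31.3%, 34.7%, 30.1% and 16.9% of all genes. Leaving out 1 library gave changes of -1.04 to -0.70, and the call was lost without protrusion library 1 (adjusted p = 0.0655), 3 (0.0769) or 4 (0.0740) or cell body library 2 (0.0847) or 5 (0.0647).

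MYO1E, a class I myosin of endocytic sites and adhesions, was at 2.21, 5.80, 0.479, 2.20 and 5.64 in protrusions and at 3.72, 3.91, 3.07, 1.45 and 3.61 in cell bodies. Protrusion libraries 2 and 5 were above every cell body and library 3 was below every cell body. The log2 change was -0.13 ± 0.38 (SE; 95% interval -0.94 to 0.69; adjusted p = 0.850), the widest interval of the 9, and it took the opposite sign when libraries were rescaled to the same sum (0.11).

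Because the scaling of libraries shifts all genes, the changes were also read against the median of all genes, which was -0.03 as deposited, 0.24 at the same sum, 0.24 after quantile normalization and 0.09 after median-of-ratios scaling. Relative to that median, MYO1C stood at -0.84, -0.79, -0.79 and -0.82 in the same order. MYL12A stood at -0.32, -0.23, -0.62 and -0.29 and MYL12B at -0.26, -0.17, -0.46 and -0.22. MYL6 stood at -0.23, -0.14, -0.16 and -0.19. MYH9 stood at 0.32, 0.35, 0.41 and 0.33, and MYH10 at 0.18, 0.13, 0.33 and 0.15. Thus MYO1C, the abundant light chains and the heavy chains kept their side of the median under these 4 scalings. MYL6B (0.09, 0.17, -0.22 and 0.12), MYL9 (-0.03, -0.01, 0.07 and -0.02) and MYO1E (-0.10, -0.13, 0.03 and -0.12) changed side under quantile normalization. As deposited, same-sum and median-of-ratios values differ only by a multiplier per library, so a change relative to the median hardly moves between them. Only quantile normalization was a separate check. With the block, 4 of the 9 passed, all lower in protrusions (MYL12B, MYO1C, MYL12A and MYL6), where 38.4% of all genes passed and 25.4% were lower. With the block and the same sum, MYH9 (0.59, adjusted p = 0.0199) and MYL6B (0.42, adjusted p = 0.0216) passed as higher in protrusions, and MYO1C (-0.55, adjusted p = 0.0185) as lower. Of all genes 53.6% passed in that fit, 33.8% higher in protrusions and 19.8% higher in cell bodies. With the block and quantile normalization 5 of the 9 passed, MYH9 and MYH10 as higher in protrusions and MYL12A, MYL12B (-0.22, adjusted p = 0.0306) and MYO1C as lower. Of all genes 51.6% passed there, 31.8% higher in protrusions and 19.7% higher in cell bodies.

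**Figure D2:**
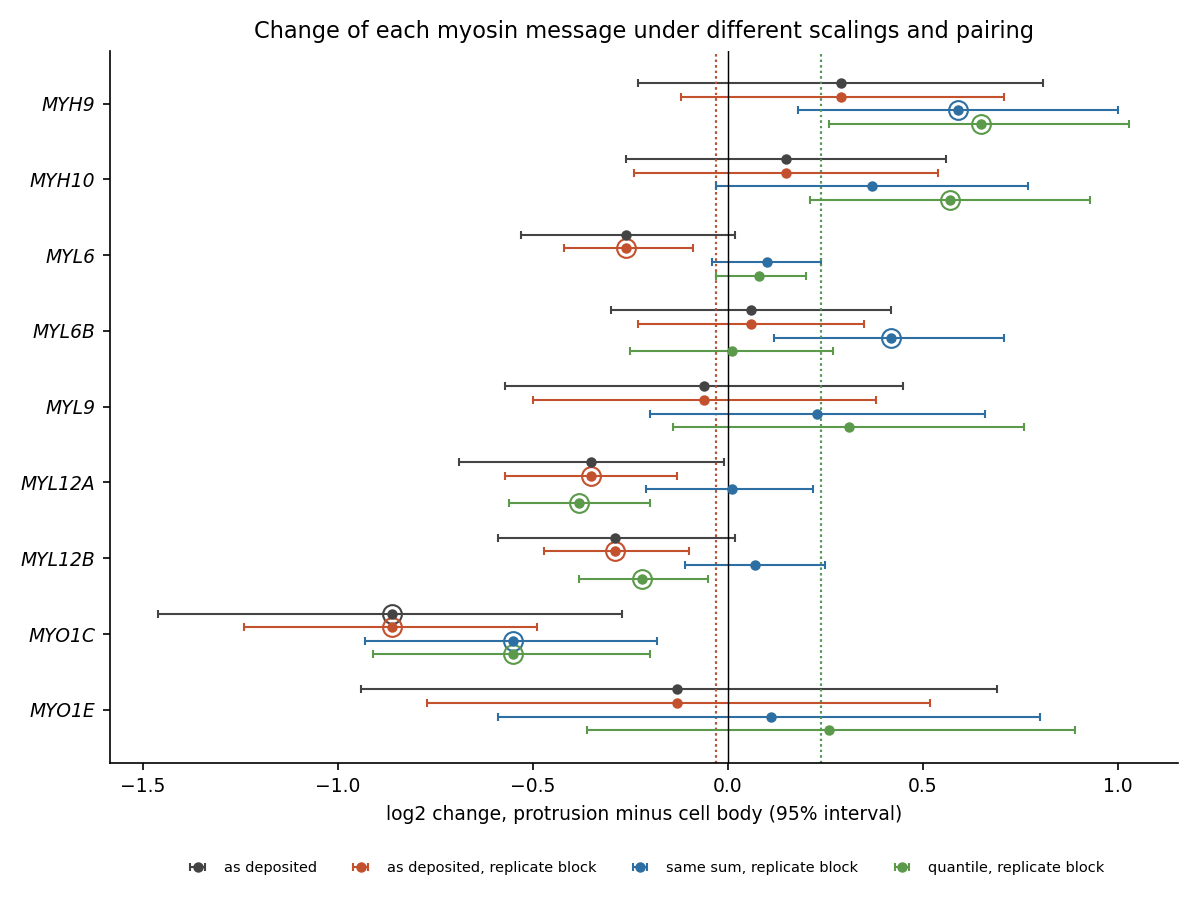
Log2 change (protrusion minus cell body, horizontal axis) of the 9 myosin genes with 95% intervals from limma, as deposited and, with the replicate block, as deposited, at the same sum and after quantile normalization; rings mark adjusted p under 0.05 and dotted lines the median of all genes (-0.03 as deposited, 0.24 for the other scalings). MYO1C is ringed in all 4 fits shown, while MYL6, MYL12A and MYL12B lie below 0 as deposited and above it at the same sum.

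Ratios of 2 members inside a library do not depend on a multiplier per library, and 7 were compared between the compartments. Quantile normalization is not such a multiplier and can change them. The ratio of MYL6B to MYL6 was 0.0335, 0.0329, 0.0351, 0.0266 and 0.0240 in protrusions and 0.0245, 0.0227, 0.0233, 0.0258 and 0.0245 in cell bodies. Protrusion libraries 1 to 4 were above every cell body and library 5 was within their range. The ratio was 1.25-fold higher in protrusions (exact two-sided permutation p = 0.0317; 0.204 after adjustment over the 7 ratios; exact sign-flip p over pairs = 0.125). After quantile normalization the log2 changes were 0.01 for MYL6B and 0.08 for MYL6, so the higher ratio was not kept there. Ratios were not tested on those values.

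The ratio of MYL6 to MYH9 was 527.2, 295.1, 548.9, 400.1 and 232.2 in protrusions and 786.6, 441.7, 607.3, 657.3 and 445.3 in cell bodies, and was lower in the protrusion of all 5 pairs (0.663-fold; exact permutation p = 0.0794; adjusted 0.204). The ratio of MYL12A to MYH9 was likewise lower in all 5 pairs (0.621-fold; exact permutation p = 0.0873; adjusted 0.204), with an exact sign-flip p of 0.0625 for each, the smallest that 5 pairs can give. The ratios of MYH10 to MYH9 (0.932-fold, exact permutation p = 0.754), MYL12B to MYL12A (1.05-fold, 0.286), MYL9 to MYL12A (1.21-fold, 0.278) and MYO1E to MYO1C (1.58-fold, 0.198) did not pass. The groups overlapped for all 7 ratios, and none passed after adjustment.

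**Figure D3:**
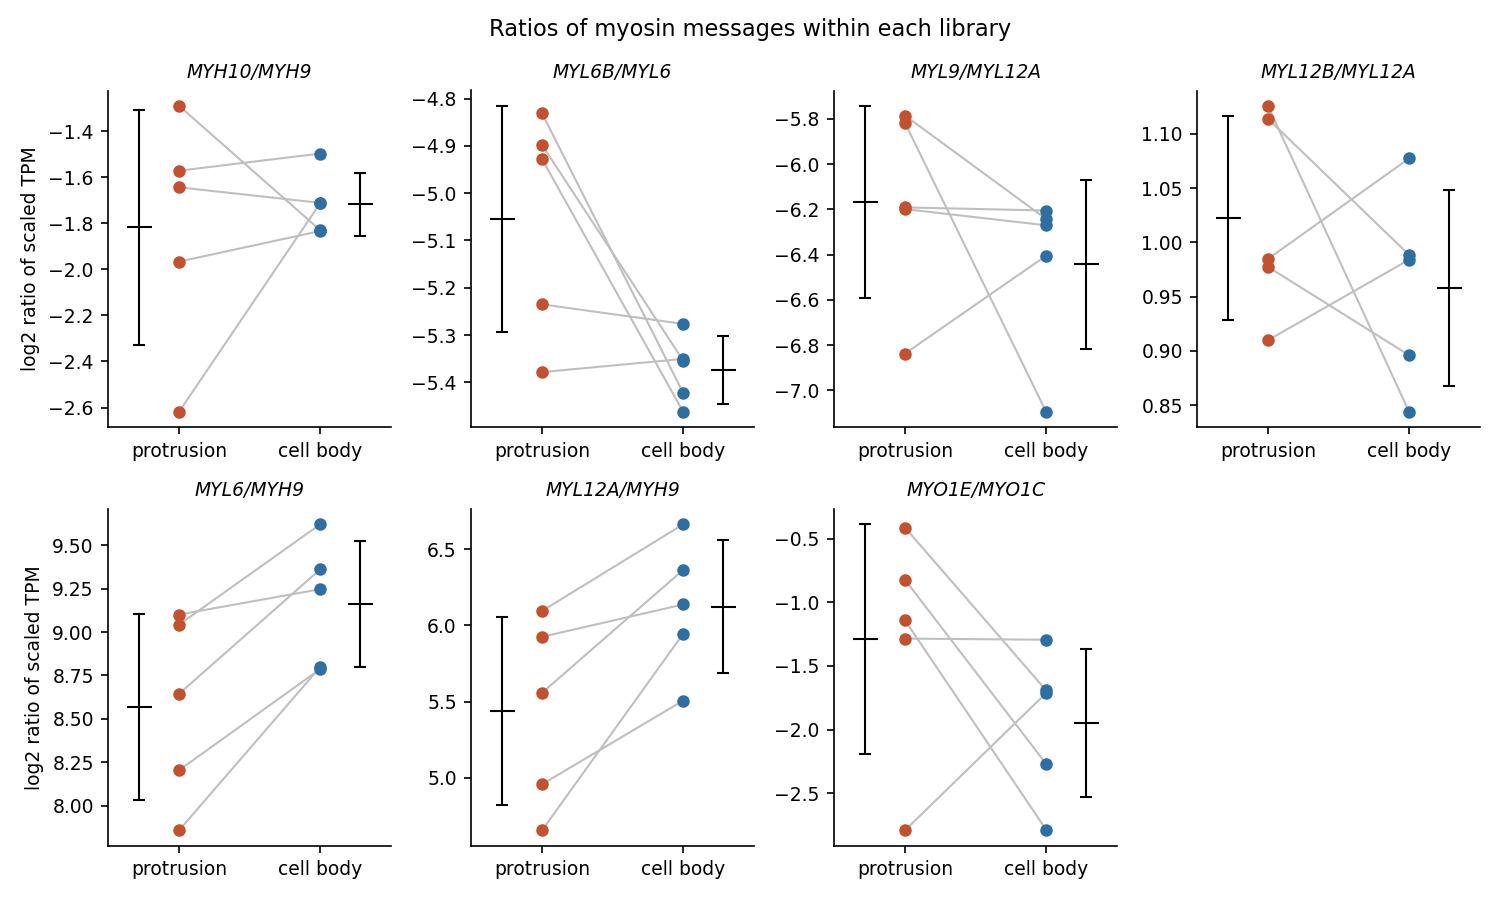
Log2 ratios of 2 myosin genes inside each library (vertical axis) for the 7 ratios, with points for the 5 libraries per group, lines joining the same number, and the mean with its SD. The ratio of MYL6B to MYL6 averages -5.05 in protrusions and -5.37 in cell bodies, and that of MYL6 to MYH9 8.57 and 9.16.

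Per length, the light chains MYL6, MYL12B, MYL12A and MYL6B stood far above the heavy chains in both compartments, and the light chain MYL9 stood below MYH9 and MYO1C. Short messages had higher levels across all coding genes. The median in protrusions was 166 scaled TPM below 1000 bases, 23.2 at 1000 to 2000 and 2.65 at 5000 or more. In cell bodies these medians were 130, 19.6 and 3.57. The gap between light and heavy chains is thus not particular to myosin, and the part of length in it was not tested. In protrusions the order of mean scaled TPM was MYL6, MYL12B, MYL12A, MYL6B and then MYH9, and each of these was above the next in 5 of 5 libraries with no overlap. The rest (MYH9, MYO1C, MYL9, MYO1E and MYH10) did not differ from their neighbours in the order beyond their spread. In cell bodies MYO1C came next after MYL6B and was above MYH9 in 5 of 5 libraries without overlap, and the order from MYH9 to MYL9, MYO1E and MYH10 again overlapped. Among the 10894 genes MYL6 had a median rank of 78 in protrusions and 82 in cell bodies, MYL12B 277 and 246, and MYL12A 480 and 371. MYH9 had a median rank of 4509 in protrusions and 5932 in cell bodies, and MYO1C of 4776 and 4032.

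The heavy chains have long messages and the light chains short ones, and the compartments differed with length across all genes. The longest annotated coding transcript was 7554 bases for MYH9, 7762 for MYH10, 5057 for MYO1C and 8673 for MYO1E, against 1438 for MYL6, 1229 for MYL12A, 1249 for MYL12B and 2821 for MYL9. The median change over all coding genes with a length was 0.22 in the class of 1000 to 2000 bases (1749 genes) and -0.16 at 5000 bases or more (2045 genes). MYL6, MYL6B, MYL12A and MYL12B lay below the median of their class. MYH9 and MYH10 lay above that of theirs, and MYO1C, in the same class, below it. The part of length in these changes was not tested.

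Lists of related genes were counted in the same way, again against 4.28% of all genes higher in protrusions and 21.5% higher in cell bodies. The median change, beside -0.03 over all genes, was -0.28 for the tested genes of other myosin heavy chains, -3.51 for muscle myosin chains, -0.26 for light chain kinases and phosphatase, 0.19 for tropomyosins and -0.12 for filament partners. MYO5A, MYH7B, DAPK2 and MYLK were at 1 or more in 1 protrusion library each and in all 5 cell bodies, so they passed the filter through the cell bodies. The filter thus favoured a difference, although the groups still overlapped for MYO5A. The calls of these genes, and their part in the counts and medians of the lists, are therefore not support for a difference. Of the other non-muscle and unconventional myosin heavy chains, 20 were measured, 6 were tested and 2 passed, both higher in cell bodies. MYO19, a motor of mitochondria, was at 8.01 ± 2.59 (SD, n = 5) in protrusions against 21.2 ± 3.67 in cell bodies (-1.33, adjusted p = 2.40e-04). MYO5A, a cargo motor on actin, was at 0.623 ± 0.525 and 2.60 ± 1.57 (-1.10, adjusted p = 0.0130), a call lost under quantile normalization (adjusted p = 0.0725; 0.0471 with the block). MYO9B (-0.32, adjusted p = 0.307) and MYO10, a motor of filopodia (0.23, adjusted p = 0.413), did not pass. After quantile normalization MYO10 passed as higher in protrusions (0.64, adjusted p = 0.0138; 0.0173 with the block).

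Of the muscle myosin chains 10 were measured, 3 were tested and 2 were higher in cell bodies. MYH7B was at 0.614 ± 0.728 (SD, n = 5) in protrusions against 27.3 ± 10.1 in cell bodies (-4.16, adjusted p = 4.32e-07). MYH3, the embryonic heavy chain of skeletal muscle, was at 2.23 ± 2.18 and 33.0 ± 13.6 (-3.51, adjusted p = 3.42e-06). The muscle markers DES and ACTA1 summed to at most 0.163 in any library. MYL5 did not pass (0.45, adjusted p = 0.280), and 16.7% of its exon bases overlap genes on the opposite strand. It passed as higher in protrusions after quantile normalization (0.83, adjusted p = 0.0408; 0.00432 with the block), and with the block also at the same sum (0.0162) and after median-of-ratios scaling (0.0376).

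Of the kinases and phosphatase subunits that set phosphorylation of the regulatory light chain, 21 were measured, 11 were tested, none was higher in protrusions and 4 were higher in cell bodies. DAPK2, a death-associated kinase, was at 0.575 ± 0.832 (SD, n = 5) in protrusions against 13.4 ± 5.53 in cell bodies (-3.23, adjusted p = 3.20e-06). MYLK, the myosin light chain kinase, was at 0.697 ± 0.403 and 3.52 ± 1.13 (-1.41, adjusted p = 2.06e-04). ROCK2, a kinase that phosphorylates the light chain and its phosphatase, was at 2.45 ± 0.636 and 5.25 ± 1.21 (-0.86, adjusted p = 0.00779), and STK17B was at 1.68 ± 0.292 and 3.16 ± 0.731 (-0.62, adjusted p = 0.0267). The calls of ROCK2 (adjusted p = 0.0565; 0.0316 with the block) and STK17B (0.178; 0.156 with the block) were lost with libraries rescaled to the same sum. Quantile normalization put the adjusted p of ROCK2 at 0.0757 (0.0543 with the block) and that of STK17B at 0.367 (0.382 with the block). Without the block the call of STK17B was also lost on leaving out protrusion library 1 (adjusted p = 0.0586) or 5 (0.0565) or cell body library 2 (0.0695) or 5 (0.0768).

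Of the tropomyosins, which influence where myosin II binds actin, 3 were tested and none passed: TPM3 (0.30, adjusted p = 0.193; 0.0467 at the same sum), TPM1 (0.19, adjusted p = 0.362) and TPM4 (-0.20, adjusted p = 0.501; 0.15 with the same sum). TPM1 was at 30.5 ± 1.53 (SD, n = 5) against 26.5 ± 1.08, without overlap, and 21.4% of its exon bases overlap genes on the opposite strand. TPM3 also passed as higher in protrusions after median-of-ratios scaling (adjusted p = 0.0285), and with the block at the same sum (3.84e-04), after quantile normalization (0.0476) and after median-of-ratios scaling (0.00147). TPM1 passed as higher with the block at the same sum (adjusted p = 0.00160), after quantile normalization (0.0431) and after median-of-ratios scaling (0.0225). Of 13 partners of the myosin filament 10 were tested and 2 were higher in cell bodies, the myosin chaperone UNC45A (7.49 ± 2.58 against 23.0 ± 4.93; -1.52, adjusted p = 7.57e-05; its exons overlap HDDC3 on the other strand) and the septin SEPT2 (29.2 ± 9.64 against 77.0 ± 21.3; -1.37, adjusted p = 2.77e-04). MPRIP, which links the phosphatase to actin (0.48, adjusted p = 0.121), and S100A4, which binds MYH9 tails (0.39, adjusted p = 0.253), did not pass. MPRIP passed as higher in protrusions with the block (adjusted p = 0.0338) and at the same sum (0.0117), and S100A4 at the same sum (0.0422). Without the block MPRIP was also past the threshold after median-of-ratios scaling (adjusted p = 0.0226). With the block both passed at the same sum, after quantile normalization and after median-of-ratios scaling, with adjusted p of 0.00114 to 0.0160 for MPRIP and 0.00182 to 0.0276 for S100A4.

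Of the calmodulin genes, which encode light chains of class I myosins, CALM3 was higher in protrusions at 87.3 ± 13.1 (SD, n = 5) against 55.1 ± 10.5 (0.66, adjusted p = 0.0103), and CALM2 was lower at 1388 ± 167 against 2103 ± 493 (-0.57, adjusted p = 0.0271), a call lost with the same sum (adjusted p = 0.463), after quantile normalization (0.246) and after median-of-ratios scaling (0.0844). CALM2 was lower in the protrusion of all 5 pairs, and with the block the adjusted p was 1.82e-04 as deposited and 0.0177, 7.65e-04 and 3.37e-04 under those scalings. Without the block the call was also lost without protrusion library 2 (adjusted p = 0.0503) or 5 (0.0581) or cell body library 1 (0.0749), 3 (0.0632) or 4 (0.0725). CALM2 and CALM3 encode the same protein, and 10.9% of the exon bases of CALM3 overlap genes on the opposite strand. MYL6P3, a pseudogene of MYL6, was at 1.21 and 1.35 (-0.02, adjusted p = 0.974).

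**Figure D4:**
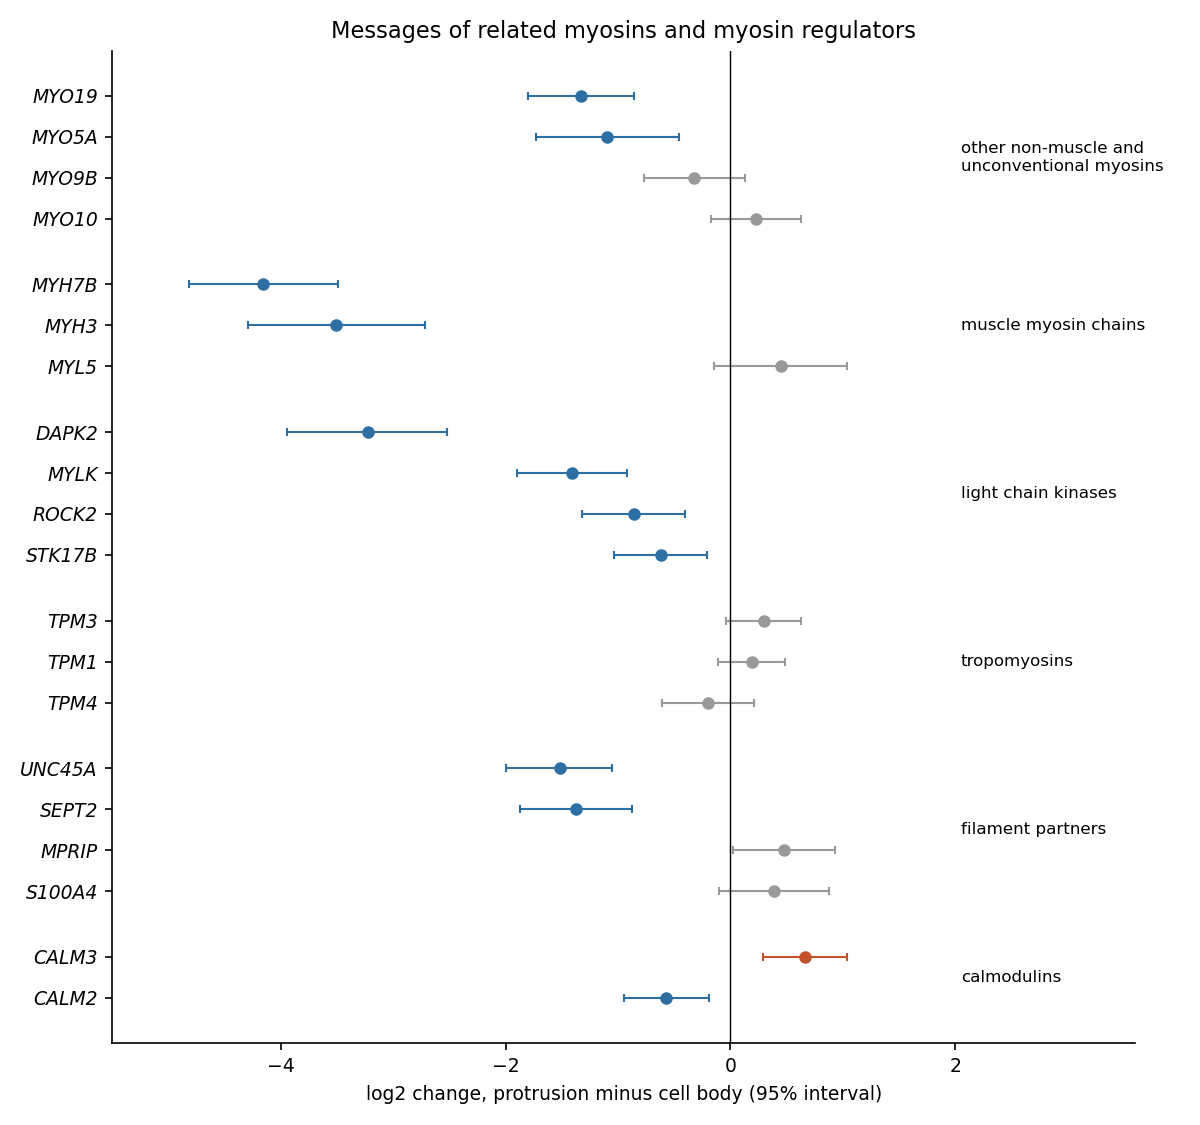
Log2 change (protrusion minus cell body, horizontal axis) of the named genes of each related list with 95% intervals from limma, coloured where adjusted p was under 0.05 (blue higher in cell bodies, red higher in protrusions) and grey otherwise. MYH7B (-4.16), MYH3 (-3.51) and DAPK2 (-3.23) lie farthest below 0, and CALM3 (0.66) is the red point.

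The profiles most like those of 3 members were found as the smallest root mean square difference of centred log2(value + 1) over the 10 libraries among 9063 coding genes. For MYH9 these were HNRNPA1L2 (0.093), TMEM132A (0.124) and PGRMC2 (0.125), where the median gene lay at 0.532. With a pseudocount of 0.1 these differences were 0.112, 0.24 and 0.164, so the likeness of TMEM132A depended on the pseudocount. For MYL6 they were NDUFS6 (0.079), EEF1B2 (0.093) and DYNLL1 (0.095), with a median of 0.434. For MYL9 they were RPP40 (0.118), RAB11A (0.158) and COX11 (0.168), with a median of 0.483.

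The authors' deposited table gave its own log2 fold change of cell body over protrusion for these genes, with the test and the grouping of libraries behind it not stated. In the authors' deposited table it was -0.539 for MYH9 (p = 0.115), 0.152 for MYL6 (p = 0.605), 0.219 for MYL12A (p = 0.481) and 0.286 for MYO1C (p = 0.474). False discovery rates of the 9 genes in the authors' deposited table ran from 0.729 to 1.00.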

How the data were processed

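RNA was measured in 5 protrusion and 5 cell body libraries. Cutadapt 1.10, StringTie 1.3, FastQC 0.10.1 and HISAT2 appear in the submitters' processing notes, whose role and order are unstated. The sources used here give neither genome build nor annotation nor strand setting. The unit of the deposited expression values is not named. In each library 100.0% of values below 2 were whole multiples of 1 step (tolerance 0.00051; 7.34% to 13.8% for an unrelated set), which matched TPM times 1 factor per library, with a product of 1.0 over the factors; they are called scaled TPM. TPM keeps no depth, so depth is unknown and no count test was run. Per the file headers, the deposited table also holds the authors' log2 fold change, p-value and false discovery rate; their test is not given.

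The labels gave the groups and numbers. Genes reaching 1 in 5 or more of the 10 libraries were fitted with limma 3.58.1 (R 4.3.3) on log2(value + 1), which understates changes of low genes, with a mean-variance trend and Benjamini-Hochberg adjustment at 0.05. Every adjusted p of a gene comes from limma. Ratios were compared by exact two-sided permutation over libraries. Other steps used scipy 1.17.1, pandas 2.3.3, numpy 2.4.6 and matplotlib 3.10.9 in Python 3.11.15. The code was tested on simulated data. Coding sequences, lengths and exon sharing came from GENCODE 29 (GRCh38), matched by gene identifier. Exon sharing counts either strand.

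Same-numbered libraries deviated together: the correlation of their deviations from the group means was 0.236 to 0.577 in the 5 pairs and -0.433 to 0.289 (median -0.05) in the 20 others, and the submitters call the cell bodies corresponding, so the numbers were taken to pair the libraries. The fit without the block leaves this pairing out. It was kept for the reported values and list counts, and blocked values are printed where the block changes the call of a named gene at the same scaling.

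The 9 members and all lists were chosen with earlier results of these data known. Named are all members, all tested genes of a list of 5 or fewer and otherwise the 4 with the smallest p, and the 3 profiles most like MYH9, MYL6 and MYL9. Alternatives were the pseudocount, the filter, the scaling, the block, robust fitting and leaving out libraries. 1 further list of regulators and 1 further gene are not reported here.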

Additional observations from a re-analysis of the deposited data

Results flagged for a closer look

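In 74 groups of 5 libraries, covering 30 named genes and the 7 ratios, 8 had 1 library far from the other 4 relative to the whole range. Chance alone does this in about 1 of 20 independent groups. These groups share libraries and genes, so the 8 cannot be read as an excess over chance. Protrusion library 2 was the library in 6 of them. It was highest for MYH10 (2.91, the others 1.42 to 1.65), MYH3 (6.08, the others 0.759 to 1.74), DAPK2 (2.02, the others 0 to 0.462), UNC45A (11.9, the others 5.67 to 7.31) and SEPT2 (46.4, the others 23.7 to 26.0), and lowest for MYL9 (2.35, the others 4.13 to 4.45). Cell body library 2 was highest for MYO1C (18.9, the others 9.11 to 11.7). Cell body library 5 was lowest for the log2 ratio of MYL9 to MYL12A (-7.10, the others -6.41 to -6.21).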

How the results depend on the processing

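Of 649 values of the 30 named genes under other settings, 538 kept direction and side of the threshold, 33 lost and 39 gained a call and 39 changed sign; the causes were not tested. All genes higher in protrusions numbered 466 as reported, 1533 at the same sum, 1905 after quantile normalization, 1132 after median-of-ratios scaling, 1412 with the replicate block, 3677 with block and same sum, and, in 2 settings chosen after seeing the data, 3467 with block and quantile and 2517 with block and median of ratios; leaving out 1 library gave 257 (without cell body 5) to 649. Protrusions held 16.6% of the calls as deposited, 44.9% at the same sum, 50.3% after quantile normalization and 34.6% after median of ratios. Genes higher in cell bodies numbered 2340, against 3975 with no filter and 1006 at a mean of 5 or more (2136 to 2576 leaving out 1 library).

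Of the 9 members, 0 were higher in protrusions as reported, and 2 after quantile normalization (17.5% of all genes), 2 with block and same sum (33.8%) and 2 with block and quantile (31.8%). Lower in protrusions was 1 as reported (21.5% of all genes), 4 with the replicate block (25.4%), 3 with block and quantile (19.7%) and 2 without both libraries numbered 2 (22.5%). The number was 0 with no filter (15.2%), 0 at the same sum (17.2%) and 0 after median of ratios (19.7%). Leaving out 1 library gave 0 to 2 (19.6% to 23.6% of all genes).

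The pairing leaves the size of a ratio as it is: the log2 difference of ratio MYL6B/MYL6 was 0.32 with the block (exact sign-flip p = 0.125), 0.26 to 0.40 leaving out 1 library, and 0.27 without both numbered 2 (exact permutation p = 0.114). That of ratio MYL9/MYL12A was 0.11 to 0.45, and 0.45 without both numbered 2 (exact permutation p = 0.0286). That of ratio MYL12A/MYH9 was -0.85 to -0.49. That of ratio MYO1E/MYO1C was 0.44 to 1.04, and 0.74 with 1 added to both (exact permutation p = 0.0317). That of ratio MYH10/MYH9 was -0.23 to 0.10, the last without protrusion 5.

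Changes of opposite sign, alike with and without the block, were at the same sum MYL6 0.10, MYL9 0.23, MYL12A 0.008, MYL12B 0.072, MYO1E 0.11, TPM4 0.15 and MYL6P3 0.18; after quantile normalization MYL6 0.082, MYL9 0.31, MYO1E 0.26, MYO9B 0.095 and MYL6P3 0.40; after median of ratios MYL9 0.062 and MYL6P3 0.045. Others were MYL6B -0.067 and MYL6P3 0.14 without both numbered 2, and MYL6P3 0.034 at a pseudocount of 0.1. Leaving out 1 library gave ranges across 0 for MYL6B (-0.011 to 0.16), MYL9 (-0.18 to 0.069), MYO1E (-0.35 to 0.20) and MYL6P3 (-0.19 to 0.20). The depth is unknown, so the counting error of low genes such as MYH10 cannot be stated.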
